A study of Mus musculus with 12 samples.

Results

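The 8 genes described here, Hmgcs1, Mvk, Idi1, Fdps, Fdft1, Sqle, Lss and Cyp51, encode enzymes that build cholesterol. They were taken by symbol from a table of 23127 genes measured by RNA sequencing of whole lung, and each symbol matched 1 entry. The 12 mice were C57BL6/J, and each library is a separate mouse. A control group of 4 mice was taken at 0 weeks. The other 2 groups, of 4 mice each, drank water with 0.5 g/L L-NAME and ate a high-fat diet of 60% lipid for 2 or 5 weeks. L-NAME inhibits nitric oxide synthases. The labels give no age or sex and describe no transgene, and the untreated mice are all from 0 weeks, so treatment and time on study cannot be told apart. All treated mice had both L-NAME and the diet, so drug and diet cannot be told apart either. Libraries were numbered 1 to 4 within a group in accession order, and these numbers pair no mice.

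Cells make cholesterol from acetyl-CoA. The early enzymes form mevalonate and turn it into the isoprene units that are joined to farnesyl diphosphate, and the late enzymes convert that to squalene, close the sterol rings and trim lanosterol to cholesterol. When the sterol content of the endoplasmic reticulum is low, the escort protein SCAP carries the transcription factor SREBP2 to the Golgi, where proteases release its active part. SREBP2 then binds the promoters of most of these genes, usually beside the CCAAT-binding factor NF-Y, so that the enzymes tend to change together. In the lung, cholesterol is a component of the surfactant that alveolar type 2 cells store and secrete.

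Values are the deposited CPM, the reads of a gene scaled to a fixed total of assigned reads per library. The steps between low values gave 26000000 to 34100000 assigned reads per library. Defining markers of alveolar type 1 and type 2, club, ciliated, endothelial and smooth muscle cells, fibroblasts and macrophages were above 0 in every group. An earlier look at these data set 3 libraries apart on principal components, namely replicate 2 of the controls and replicate 3 of both treated groups. Results that turn on them are given with and without them. Control replicate 2 also carried a summed 1545 CPM of 7 adipocyte markers, against at most 145 CPM in any 5-week library and 122 CPM in any 2-week library. In bulk tissue, fewer cells of a type and less RNA per cell cannot be told apart.

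After 2 weeks, all 8 enzymes had higher mean levels than in the controls, by 1.15 times for Lss up to 1.39 times for Idi1. After 5 weeks all 8 means were still above the control means, by 1.01 times for Fdft1 up to 1.32 times for Idi1, and all 8 were below the 2-week means. None of these differences passed the test across all genes (limma on log2(CPM + 1), 15562 genes tested, Benjamini-Hochberg adjusted p under 0.05). No other tested gene passed it either: limma called 0% of genes in each of the 3 comparisons. At an unadjusted p under 0.05 it picked 1438 genes between 2 weeks and the controls, 1343 between 5 weeks and the controls, and 1696 between the treated groups. In direction alone, 55.1% and 55% of all tested genes were higher than in the controls after 2 and 5 weeks. Between the treated groups, 50.2% were higher at 5 weeks.

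For 2 against 0 weeks, 7 of the 8 genes had an unadjusted p under 0.05 and were higher, against 5.72% of all tested genes. In 5 of the 8, every 2-week library lay above every control library, against 3.37% of all tested genes. The median log2 difference of the 8 genes was 0.30, beside 0.02 for all tested genes. Without control replicate 4, which had the lowest value of its group for 6 of the 8 genes, the median was 0.20 and the count at p under 0.05 was 4. Without the 3 libraries that stand apart it was 0.36, and the count was 8. In the same order, these fits picked 943 and 1137 of the 15562 tested genes at that p, in either direction, against 1438 with all libraries.

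For 5 against 0 weeks, 2 of the 8 genes had an unadjusted p under 0.05 and were higher, against 5.84% of all tested genes. In 1 of the 8, Fdps, the groups did not overlap, against 3.65% of all tested genes. The median log2 difference was 0.14, beside 0.02 for all tested genes. It was 0.22 without control replicate 2 and 0.10 without 5-week replicate 1. Without the 3 libraries that stand apart it was 0.26 and the count at p under 0.05 was 6. Leaving out control replicate 2 gave 4 such genes, and leaving out 5-week replicate 3 also gave 4. Weighting the libraries by their fit gave 5. Over all tested genes, in either direction, these fits picked 1164, 904 and 1338 genes at that p. The fit without the 3 libraries picked 885. Both comparisons against 0 weeks use the same 4 control mice.

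For 5 against 2 weeks, 2 of the 8 genes, Mvk and Fdft1, had an unadjusted p under 0.05 and were lower, against 4.72% of all tested genes. The same 2 genes had groups that did not overlap, against 2.56% of all tested genes. The median log2 difference was -0.10, beside 0.00 for all tested genes. It was -0.06 without 2-week replicate 4 and also with libraries weighted by their fit. The count was 0 without 2-week replicate 1, 2-week replicate 2, 5-week replicate 4 or the 3 libraries together. It was 1 without control replicate 1, control replicate 3, 2-week replicate 3, 2-week replicate 4 or 5-week replicate 3. Over all tested genes, these fits and those with a count of 0 picked 1075 to 2582 genes at that p, in either direction.

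**Figure D1:**
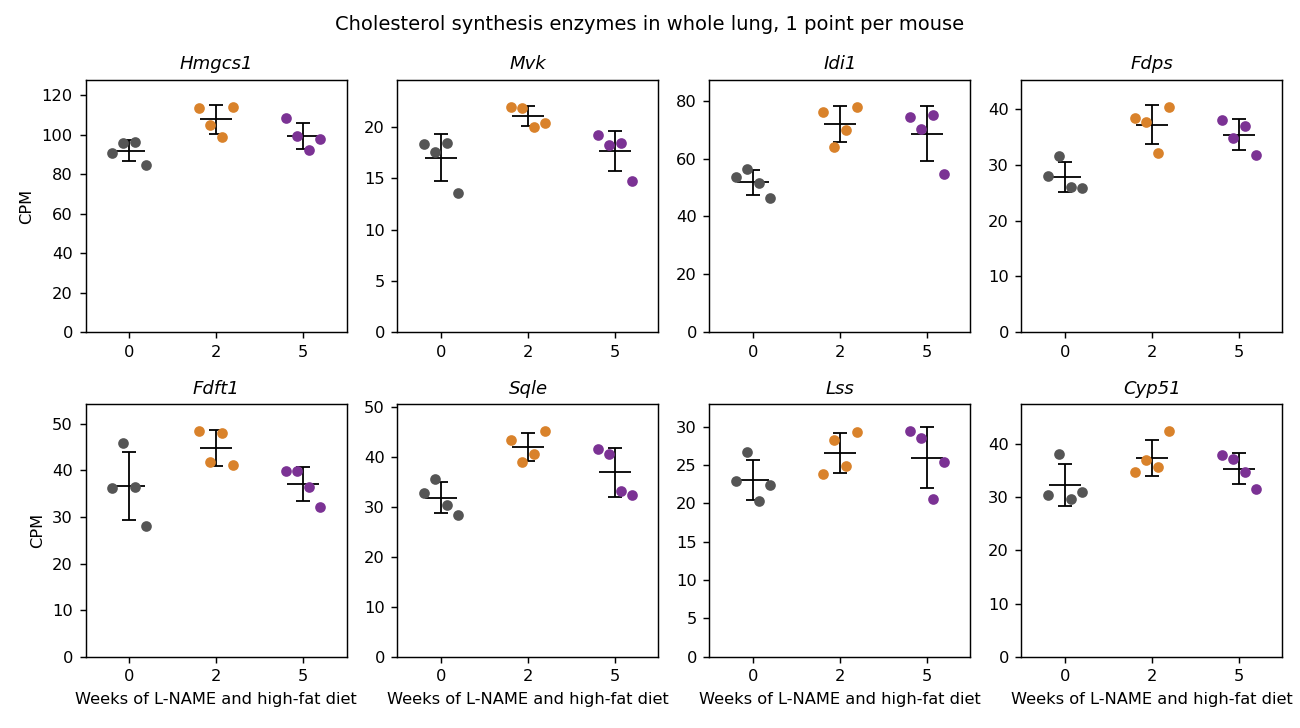
CPM of the 8 enzymes (vertical axes from 0) in each mouse after 0, 2 or 5 weeks of L-NAME and high-fat diet; points are libraries, horizontal lines the group means and bars the SD of 4 mice. For Idi1 the 2-week points run from 63.9 to 77.9 CPM and the control points from 46.2 to 56.5 CPM. For Fdft1, Lss and Cyp51 the 2-week and control points overlap.

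Stretches of 3 of the promoters are shown as a description, and their link to the levels was not tested. RefSeq (GRCm38.p6) gave the 250 bases before the start of 5 of the 8 genes, Hmgcs1, Mvk, Idi1, Lss and Cyp51. The stretches hold no annotated exon and are written 5′ to 3′ on the gene's strand. Capitals mark CCAAT, or ATTGG where it lies on the other strand, and CACNCCAC, a core of the sterol regulatory element that SREBP proteins bind. Hmgcs1 is at chr13:119690101-119690350 on the plus strand, Mvk at chr5:114444061-114444268 on the plus strand, and Lss at chr10:76531355-76531587 on the plus strand.
Hmgcs1: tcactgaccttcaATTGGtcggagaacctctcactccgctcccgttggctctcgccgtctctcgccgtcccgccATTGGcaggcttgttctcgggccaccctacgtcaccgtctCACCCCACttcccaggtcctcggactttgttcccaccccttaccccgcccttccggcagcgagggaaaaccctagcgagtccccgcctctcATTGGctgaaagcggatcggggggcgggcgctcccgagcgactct
Mvk: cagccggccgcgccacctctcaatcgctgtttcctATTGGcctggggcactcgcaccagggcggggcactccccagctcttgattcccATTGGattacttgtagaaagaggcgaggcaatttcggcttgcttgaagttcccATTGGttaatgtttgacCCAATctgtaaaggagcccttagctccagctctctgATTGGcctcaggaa
Lss: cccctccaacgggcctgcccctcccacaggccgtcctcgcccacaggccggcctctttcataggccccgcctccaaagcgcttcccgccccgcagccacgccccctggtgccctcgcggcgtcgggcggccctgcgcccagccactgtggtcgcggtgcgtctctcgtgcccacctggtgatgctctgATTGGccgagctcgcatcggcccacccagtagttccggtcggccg

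Searched on both strands, CACNCCAC was found in 1 of the 5 windows, that of Hmgcs1, where it reads CACCCCAC and begins 136 bases before the start. It was found in 5.29% of all 32851 windows of this length. CCAAT was found in 5 of the 5 windows and in 33.8% of all windows. The GC box GGGCGG, which binds Sp1-type factors and is left in lower case above, was also found in 5 of the 5, against 32.7% of all windows. No match of one motif overlapped a match of another. The Hmgcs1 stretch holds 3 CCAAT matches, at 237, 176 and 45 bases before the start. The Mvk stretch holds 5, the nearest at 14 bases, and Lss has 1, at 62 bases. The Cyp51 match, at 29 bases, lies outside the stretch of that window that could be printed, and that stretch is not shown above. The Mvk window also holds exon sequence of Mmab, which is read in the opposite direction and averaged 14.4, 15.5 and 14.4 CPM after 0, 2 and 5 weeks. A match of letters is a description and not a binding site, and no binding was measured here.

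Hmgcs1 encodes cytosolic HMG-CoA synthase, which joins acetoacetyl-CoA and acetyl-CoA at the entry to the pathway (ENSMUSG00000093930, chromosome 13, 120151915 to 120169796, plus strand). Positions of this kind are those of the deposited table, which names no build, and do not share a scale with the promoter coordinates above. Its control libraries read 90.8, 95.5, 96.1 and 84.6 CPM. The 2-week libraries read 113, 105, 98.6 and 114 CPM, and the 5-week libraries 108, 99.4, 92.2 and 97.8 CPM. Every 2-week library lay above the highest control, closely so in replicate 3, and the 5-week libraries overlapped both other groups. The means were 91.8 ± 5.33, 108 ± 7.29 and 99.4 ± 6.66 CPM (SD, n = 4 each). For 2 against 0 weeks the log2 difference was 0.23 ± 0.07 (SE, limma adjusted p = 0.392). It was 0.11 for 5 against 0 weeks and -0.11 for 5 against 2 weeks. An antisense transcript across the gene, Gm48342, stayed at or below 1.15 CPM in each library.

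Mvk, mevalonate kinase, adds the first phosphate to mevalonate (ENSMUSG00000041939, chromosome 5, 114582330 to 114598652, plus strand). Its control libraries read 18.3, 17.6, 18.4 and 13.6 CPM, the 2-week libraries 22.0, 21.8, 20.0 and 20.4 CPM, and the 5-week libraries 19.2, 18.2, 18.4 and 14.8 CPM. The 2-week libraries stood above all 8 others, and control replicate 4 and 5-week replicate 4 were the lowest. The 2-week mean of 21.0 ± 0.983 CPM was 1.24 times the control mean of 17.0 ± 2.29 CPM (SD, n = 4), a log2 difference of 0.30 ± 0.11 (SE, limma adjusted p = 0.436). The 5-week mean of 17.7 ± 1.98 CPM was 0.839 times the 2-week mean, a log2 difference of -0.25 ± 0.11 (SE, limma adjusted p = 0.436). For 5 against 0 weeks the log2 difference was 0.06, and it was -0.04 without control replicate 4.

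Idi1 encodes isopentenyl-diphosphate isomerase, which interconverts the isoprene units (ENSMUSG00000058258, chromosome 13, 8935537 to 8942487, plus strand). The control libraries read 53.5, 56.5, 51.4 and 46.2 CPM. After 2 weeks the libraries read 76.1, 63.9, 70.0 and 77.9 CPM, and after 5 weeks 74.3, 70.3, 75.1 and 54.6 CPM. All 2-week libraries and 3 of the 4 5-week libraries were above the highest control, and 5-week replicate 4 fell inside the control range. The log2 difference of 0.46 ± 0.11 for 2 against 0 weeks was the highest of the 8 genes (SE, limma adjusted p = 0.204), and that for 5 against 0 weeks was 0.39 ± 0.11 (SE, limma adjusted p = 0.463). The 95% intervals were 0.24 to 0.69 and 0.16 to 0.62. For 5 against 2 weeks the difference was -0.08, and it was 0.03 without 5-week replicate 4. The pseudogene Idi1-ps1 is listed separately, at means of 5.10 ± 1.29, 5.96 ± 1.37 and 6.97 ± 0.618 CPM (SD, n = 4 each), and the counting is not stated to separate the copies.

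Fdps, farnesyl diphosphate synthase, makes the last product shared by the sterol and non-sterol branches (ENSMUSG00000059743, chromosome 3, 89000895 to 89009266, minus strand). The control libraries read 28.0, 31.6, 26.0 and 25.9 CPM, the 2-week libraries 38.4, 37.8, 32.2 and 40.5 CPM, and the 5-week libraries 38.1, 34.8, 37.1 and 31.9 CPM. All 8 treated libraries lay above the highest control, narrowly for 5-week replicate 4 and 2-week replicate 3. Means were 27.9 ± 2.65, 37.2 ± 3.53 and 35.4 ± 2.75 CPM (SD, n = 4 each), or 1.34 and 1.27 times the control mean. The log2 differences from the controls were 0.40 ± 0.09 after 2 weeks and 0.34 ± 0.09 after 5 weeks (SE, limma adjusted p = 0.204 and 0.464). Between 5 and 2 weeks the difference was -0.07, with a 95% interval from -0.27 to 0.13. In the GENCODE M21 annotation Fdps overlaps Gm43738, a protein-coding gene, and Gm22935, an snRNA gene, on the same strand. Neither has values among the deposited genes, and how shared reads were assigned was not tested.

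Fdft1 encodes squalene synthase, which commits farnesyl diphosphate to sterols (ENSMUSG00000021273, chromosome 14, 63382599 to 63417027, minus strand). The control libraries spread from 28.2 CPM in replicate 4 to 45.9 CPM in replicate 2, with 36.1 and 36.4 CPM in replicates 1 and 3. The 2-week libraries read 48.3, 41.8, 48.0 and 41.2 CPM, and the 5-week libraries 39.8, 39.8, 36.4 and 32.0 CPM. All 2-week libraries were above all 5-week libraries, while control replicate 2 lay within the 2-week range. The log2 difference was 0.30 ± 0.13 for 2 against 0 weeks and -0.27 ± 0.13 for 5 against 2 weeks (SE, limma adjusted p = 0.495 and 0.458). For 5 against 0 weeks it was 0.03, with a 95% interval from -0.24 to 0.30. Leaving out control replicate 4 gave -0.09, and leaving out 5-week replicate 1 or 5-week replicate 2 gave -0.01. The gene overlaps Ctsb, a lysosomal protease gene on the other strand with a mean of 503 CPM. Strand use in the counting is not stated, so Fdft1 is uncertain by the share of reads that the pair could exchange, which was not tested. Ctsb averaged 532 ± 94.2, 472 ± 31.2 and 504 ± 23.3 CPM after 0, 2 and 5 weeks (SD, n = 4 each), a log2 difference of -0.16 for 2 against 0 weeks.

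Sqle, squalene epoxidase, adds the first oxygen of the sterol and is a rate-controlling step (ENSMUSG00000022351, chromosome 15, 59186926 to 59203041, plus strand). Its control libraries read 32.6, 35.6, 30.4 and 28.4 CPM. The 2-week libraries read 43.4, 38.9, 40.6 and 45.0 CPM, and the 5-week libraries 41.5, 40.5, 33.1 and 32.2 CPM. The 2-week libraries were all above the controls, and the 5-week libraries split into 2 inside the 2-week range and 2 inside the control range. Means were 31.7 ± 3.12, 42.0 ± 2.77 and 36.8 ± 4.86 CPM (SD, n = 4 each). On the log2 scale the difference was 0.39 ± 0.10 for 2 against 0 weeks (SE, limma adjusted p = 0.244), 0.20 ± 0.10 for 5 against 0 weeks and -0.19 ± 0.10 for 5 against 2 weeks.

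Lss, lanosterol synthase, folds oxidosqualene into the sterol ring system (ENSMUSG00000033105, chromosome 10, 76367422 to 76392972, plus strand). Its control libraries read 22.9, 26.7, 20.4 and 22.5 CPM, the 2-week libraries 23.8, 28.3, 24.9 and 29.3 CPM, and the 5-week libraries 29.4, 28.6, 20.5 and 25.4 CPM. The 3 groups overlapped, and 5-week replicate 3 was next to the lowest control. The log2 difference was 0.20 ± 0.12 for 2 against 0 weeks (SE, limma adjusted p = 0.615), with a 95% interval from -0.06 to 0.45, and Lss was the 1 gene of the 8 with an unadjusted p above 0.05 there, 0.123. It was 0.16 for 5 against 0 weeks. For 5 against 2 weeks it was -0.04, and it was 0.06 without 5-week replicate 3 and 0.01 without 2-week replicate 4.

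Cyp51, lanosterol 14-demethylase, removes the first methyl group from lanosterol (ENSMUSG00000001467, chromosome 5, 4131145 to 4154746, minus strand). The control libraries read 30.4, 38.1, 29.6 and 31.1 CPM, the 2-week libraries 34.9, 37.0, 35.7 and 42.4 CPM, and the 5-week libraries 38.0, 37.2, 34.8 and 31.5 CPM. Control replicate 2 lay among the treated libraries, and the other 3 controls were below all 8 of them. Cyp51 differed by 0.21 ± 0.10 on the log2 scale for 2 against 0 weeks (SE, limma adjusted p = 0.529) and 0.13 ± 0.10 for 5 against 0 weeks. Without control replicate 2 these were 0.29 and 0.21. Cyp51 overlaps Akap9 on the other strand, a scaffold protein gene with a mean of 74.7 CPM.

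**Figure D2:**
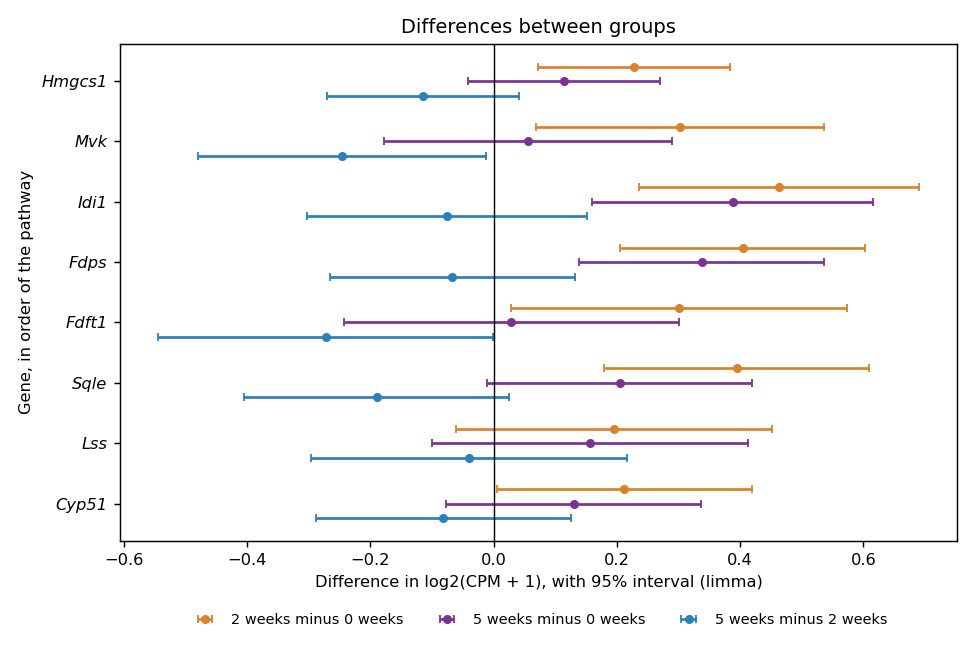
Difference in log2(CPM + 1) between groups for each enzyme (horizontal axis), with points at the limma estimate, bars for the 95% interval and colours for the 3 comparisons. All 8 estimates for 2 minus 0 weeks and for 5 minus 0 weeks are above 0, from 0.20 to 0.46 and from 0.03 to 0.39, and all 8 for 5 minus 2 weeks are below 0.

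Summed over the 8 enzymes, the controls held 280 to 347 CPM, the 2-week libraries 370 to 411 CPM and the 5-week libraries 320 to 389 CPM. The group means were 312 ± 27.5, 389 ± 19.7 and 356 ± 29.3 CPM (SD, n = 4 each), so the 2-week range lay above the control range and the 5-week range overlapped both. Each 2-week library exceeded the control mean for all 8 genes, as did 5-week replicates 1 and 2 and also control replicate 2. The other two 5-week libraries exceeded it for 6 genes, in replicate 3, and 5 genes, in replicate 4. Among the controls, replicate 2 was highest for 6 of the 8 genes and replicate 4 lowest for 6.

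The 8 genes also followed each other from library to library. Over the 12 libraries, Pearson's r of log2(CPM + 1) was above 0 for 28 of the 28 pairs, from 0.30 for Mvk with Lss to 0.91 for Idi1 with Fdps, with a median of 0.73. After the group means were subtracted it was above 0 for 28 of 28 pairs, from 0.05 to 0.76, with a median of 0.57. Lss was the partner in the weakest pairs within groups, with Mvk at 0.05 and Idi1 at 0.06, and Fdps with Cyp51 was the closest at 0.76. These values describe 12 libraries, whose points share the library's depth, scaling and cell makeup. The same values were not computed for pairs of other tested genes, so no background share stands beside them.

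**Figure D3:**
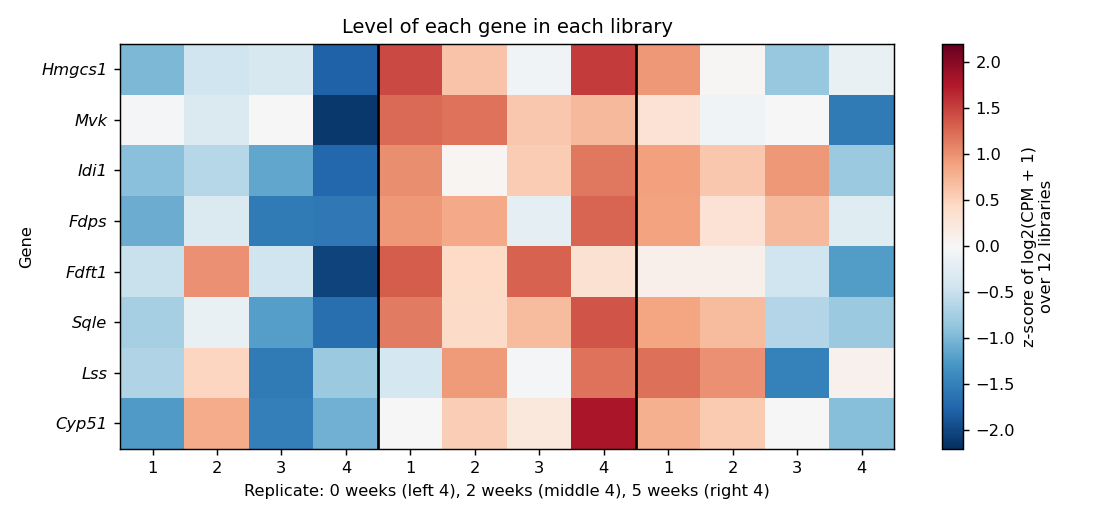
Level of each enzyme (vertical axis) in each of the 12 libraries (horizontal axis, grouped by week) as a z-score of log2(CPM + 1) over the libraries, red above and blue below the gene's mean. Control replicate 4 averages -1.60 over the 8 genes and 2-week replicate 4 averages 1.18, and 5-week replicates 1 and 2 (0.76 and 0.41) are above 5-week replicates 3 and 4 (-0.22 and -0.71).

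A list of 12 other enzymes of the mevalonate and sterol pathway was less uniform. For 2 against 0 weeks, 9 were higher and 3 lower with a median log2 difference of 0.10, or 0.16 without control replicate 2. At an unadjusted p under 0.05, 1 was higher and 1 lower, against 5.72% and 3.52% of all tested genes, and none passed the adjusted test. For 5 against 0 weeks 10 were higher, with a median of 0.12, or 0.21 without the 3 libraries that stand apart. Msmo1, the methylsterol oxidase that acts later in the pathway than Cyp51, read 33.0 to 35.8 CPM in the controls and 41.2 to 49.0 CPM after 2 weeks. The groups did not overlap, as for 3.37% of all tested genes in that direction. Its log2 difference was 0.38 ± 0.10 after 2 weeks and 0.34 ± 0.10 after 5 weeks (SE, limma adjusted p = 0.304 and 0.513). Mvd, which decarboxylates mevalonate diphosphate, averaged 10.9 ± 1.67 CPM in the controls and 13.1 ± 0.989 CPM after 5 weeks (SD, n = 4). Control replicate 2, at 13.4 CPM, lay inside the 5-week range of 12.1 to 14.5 CPM, and the other controls read 9.93 to 10.1 CPM. The log2 difference from the controls was 0.26 ± 0.12 (SE, limma adjusted p = 0.575).

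Pmvk, phosphomevalonate kinase, acts directly after Mvk and lay in the opposite direction. Its control libraries read 23.7, 30.8, 30.3 and 21.2 CPM. The 2-week libraries read 19.4, 19.1, 20.7 and 18.7 CPM, all below the controls, as for 304 of the 15562 tested genes. The log2 difference was -0.41 ± 0.12 after 2 weeks (SE, limma adjusted p = 0.377), against 3.52% of all tested genes that were lower at an unadjusted p under 0.05. After 5 weeks it was -0.34 ± 0.12 (SE, limma adjusted p = 0.543), a direction taken at that p by 2.79% of tested genes. Lbr, the lamin B receptor with sterol reductase activity, averaged 73.5 ± 4.56 CPM in the controls, 73.5 ± 1.58 CPM in the 2-week mice and 84.7 ± 3.71 CPM in the 5-week mice (SD, n = 4 each). Its 5-week libraries lay above all 8 others, as for 3.65% of tested genes against the controls and 370 of 15562 against the 2-week libraries. The log2 difference for 5 against 2 weeks was 0.20 ± 0.06 (SE, limma adjusted p = 0.29), where 6.18% of tested genes were higher at an unadjusted p under 0.05.

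**Figure D4:**
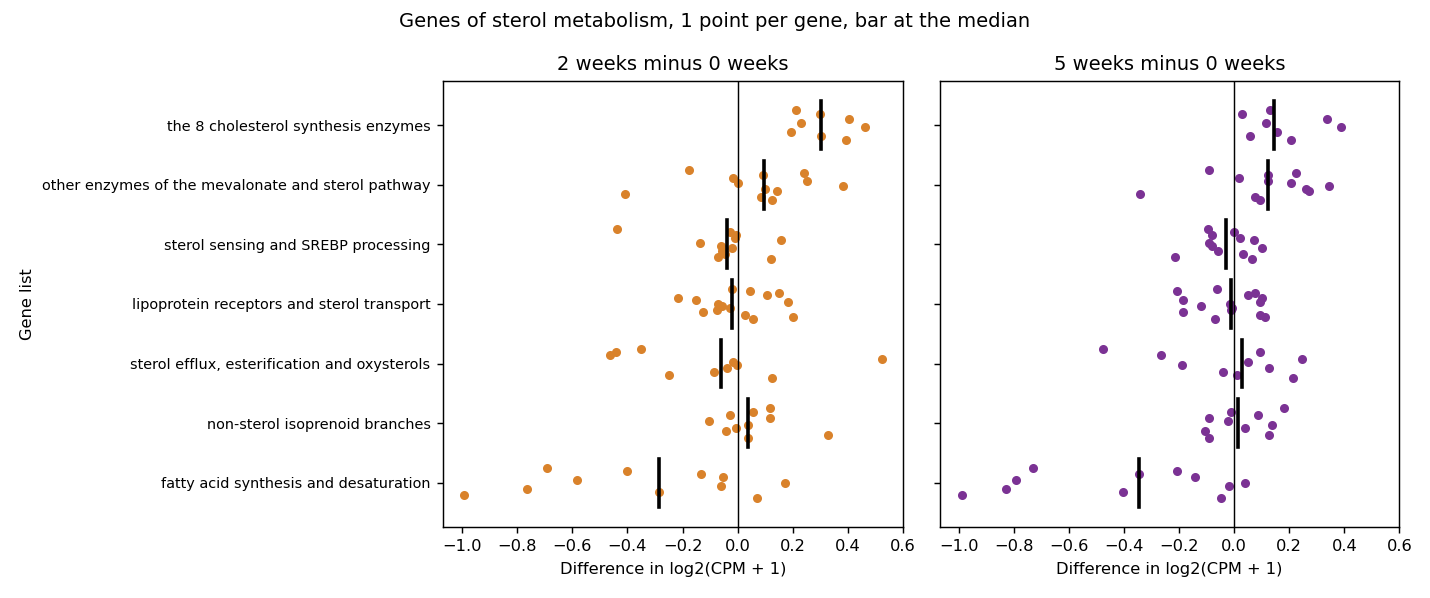
Difference in log2(CPM + 1) from the 0-week controls (horizontal axes) after 2 weeks (left) and 5 weeks (right), with 1 point per gene, grouped by list on the vertical axis, and a bar at each list's median. The 8 enzymes have medians of 0.30 and 0.14, and the genes of fatty acid synthesis have medians of -0.28 and -0.35.

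Among 12 genes of sterol sensing and SREBP processing, 10 were lower after 2 weeks, with a median log2 difference of -0.04, and none passed the adjusted test. Without control replicate 2, 7 were lower. Without the 3 libraries that stand apart 5 were lower and 7 higher, and the median was 0.02. Srebf2, which encodes SREBP2, averaged 191 ± 5.33, 208 ± 10.1 and 202 ± 26.7 CPM after 0, 2 and 5 weeks (SD, n = 4 each), a log2 difference of 0.12 ± 0.09 for 2 against 0 weeks. Insig1, a target of SREBP proteins that holds SCAP in the endoplasmic reticulum, read 134 CPM in control replicate 2 and 60.7 to 75.5 CPM in the other controls. Both genes were chosen after their values were seen. The log2 difference of Insig1 was -0.01 ± 0.19 after 2 weeks with all libraries and 0.25 without control replicate 2. Erlin1, which limits SREBP activation and takes part in the turnover of sterol-regulated proteins, read 36.5 to 41.3 CPM in the controls and 24.3 to 33.0 CPM after 2 weeks. This difference of -0.44 ± 0.09 had the smallest adjusted p in the list (SE, limma adjusted p = 0.138), and the 5-week libraries, from 34.7 to 38.4 CPM, lay above the 2-week ones. Groups lay apart in these directions for 304 and 370 of the 15562 tested genes. Insig2, the second gene for a protein that retains SCAP, read 45.6 to 48.6 CPM in the controls and 49.0 to 56.6 CPM after 2 weeks. The groups did not overlap, as for 3.37% of all tested genes in that direction. Its log2 difference was 0.16 ± 0.08 (SE, limma adjusted p = 0.55).

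Of 15 genes of lipoprotein receptors and sterol transport, 7 were higher and 8 lower after 2 weeks, with a median of -0.02, and none passed the adjusted test. Without the 3 libraries that stand apart 8 were higher, with a median of 0.01. Stard4, a carrier of cholesterol between membranes, averaged 46.0 ± 4.14 CPM in the controls and 53.0 ± 4.77 CPM after 2 weeks (SD, n = 4). Its lowest 2-week library, 49.9 CPM, lay just above the highest control, 49.7 CPM, and the log2 difference was 0.20 ± 0.09 (SE, limma adjusted p = 0.512). Groups lay apart in this direction for 3.37% of all tested genes. The receptor Scarb1, which takes up cholesteryl esters from high-density lipoprotein, was 0.18 lower after 5 weeks on the log2 scale, with overlapping libraries (SE 0.11, limma adjusted p = 0.657).

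Of 10 genes of sterol efflux, esterification and oxysterols, 8 were lower after 2 weeks, with a median of -0.06, and none passed the adjusted test. At an unadjusted p under 0.05, 4 were lower and 1 higher, against 3.52% and 5.72% of all tested genes. After 5 weeks 6 of the 10 were higher than in the controls, with a median of 0.03. Abca1, which exports cholesterol to apolipoproteins, read 119, 152, 121 and 137 CPM in the controls. It read 104, 104, 109 and 94.2 CPM after 2 weeks, and 103, 104, 69.0 and 107 CPM after 5 weeks. All 8 treated libraries were below all controls, as were the 2-week libraries for 304 of 15562 tested genes and the 5-week libraries for 211. The log2 differences were -0.35 ± 0.13 and -0.48 ± 0.13 (SE, limma adjusted p = 0.438 and 0.463), and the second was -0.26 without the 3 libraries that stand apart. Apoe, a carrier of cholesterol in lipoproteins, averaged 909 ± 197 CPM in the controls and 648 ± 26.4 CPM after 2 weeks (SD, n = 4). The groups did not overlap, as for 304 of the 15562 tested genes in that direction. Its log2 difference was -0.46 ± 0.13 (SE, limma adjusted p = 0.316), and it was -0.33 without control replicate 2. Abcg1, another sterol exporter, and Nr1h3, which encodes the sterol-activated receptor LXR alpha, were lower by 0.44 and 0.25 on the log2 scale after 2 weeks with overlapping libraries. After 5 weeks their differences from the controls were 0.09 and 0.01. Ch25h, which makes 25-hydroxycholesterol, averaged 7.75 ± 1.28 CPM in the controls and 11.9 ± 3.87 CPM after 2 weeks (SD, n = 4), a log2 difference of 0.52 ± 0.18 (SE, limma adjusted p = 0.415). Its 2-week libraries read 7.66, 17.0, 11.6 and 11.3 CPM and overlapped the controls, at 5.87 to 8.58 CPM.

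Alveolar macrophages take up surfactant lipid and express sterol exporters, and 7 of their 8 markers were lower after 2 weeks, with a median of -0.62, or -0.39 without the 3 libraries that stand apart. Their summed level ranged from 282 to 717 CPM in the controls, 249 to 720 CPM after 2 weeks and 579 to 768 CPM after 5 weeks, and none of the markers was at 0. All 5 smooth muscle markers were higher after 2 weeks, with a median of 0.38 and summed levels of 909 to 1179 CPM against 764 to 867 CPM in the controls. After 5 weeks all 5 were lower than after 2 weeks, at 686 to 857 CPM, and none was at 0. The 8 markers of alveolar type 2 cells summed to 18876 to 22673, 20726 to 24169 and 22039 to 27473 CPM after 0, 2 and 5 weeks, with 7 of 8 and 8 of 8 higher than in the controls and none at 0. All 7 markers of club and ciliated cells were higher after 2 weeks, with a median of 0.21, and 6 of the 7 were lower at 5 than at 2 weeks, with a median of -0.30. Their summed levels were 22827 to 35659, 23365 to 35618 and 20992 to 28188 CPM after 0, 2 and 5 weeks. After 5 weeks all 5 neutrophil markers, all 5 red cell markers and all 5 B cell markers were higher than in the controls, with medians of 1.25, 1.46 and 0.86. Without the 3 libraries that stand apart these medians were 0.69, 0.80 and 0.80. The summed neutrophil markers ranged from 50.1 to 164 CPM in the controls and from 99.4 to 311 CPM after 5 weeks. Red cell markers ranged from 1207 to 2566 CPM and from 1473 to 16132 CPM in the same groups, and B cell markers from 84.9 to 142 CPM and from 156 to 345 CPM. None of the markers of these lists was at 0, and none passed the adjusted test. The part of these markers' cells in the levels of the enzymes was not tested.

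The 10 genes of the non-sterol isoprenoid branches, which use farnesyl diphosphate for prenylation, ubiquinone and dolichol, had a median of 0.04 after 2 weeks, and none passed the adjusted test. Rabggta, a subunit of the transferase that prenylates Rab proteins, read 17.3 to 22.1 CPM in the controls and 24.5 to 26.7 CPM after 2 weeks. The log2 difference was 0.33 ± 0.08 (SE, limma adjusted p = 0.238), and the 5-week libraries were again lower, from 21.2 to 22.5 CPM. Groups lay apart in these directions for 3.37% and 2.56% of all tested genes. Coq2, which attaches the side chain of ubiquinone, was 0.18 ± 0.08 higher after 5 weeks (SE, limma adjusted p = 0.575). Its groups did not overlap, as for 3.65% of all tested genes in that direction, but they lay close. The highest control read 39.0 CPM, and the 5-week libraries read 39.4, 39.9, 50.6 and 40.6 CPM. The value of 50.6 CPM is that of replicate 3, a library that stands apart.

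The 11 genes of fatty acid synthesis and desaturation had a median of -0.28 after 2 weeks and -0.35 after 5 weeks, with 9 and 10 genes lower, and none passed the adjusted test. Scd1, the stearoyl-CoA desaturase, read 5840 CPM in control replicate 2 and 1899, 820 and 1563 CPM in the other controls. After 2 weeks it read 1091, 809, 840 and 1220 CPM. Without control replicate 2 the medians of this list were -0.08 and -0.06, with 7 and 6 of the 11 genes lower, and the Scd1 difference after 2 weeks was -0.46 in place of -0.99. The 7 adipocyte markers were all lower after 2 weeks, with a median of -1.14 that became -0.00 without that library. Without the 3 libraries that stand apart, 6 of these markers were higher and their median was 0.36. Their summed level ranged from 35.6 to 1545 CPM in the controls, and none was at 0; their part in these lipid genes was not tested. Fads1, the delta-5 desaturase, differed from that pattern: it was higher in all 2-week libraries than in all controls, by 0.17 ± 0.06 on the log2 scale (SE, limma adjusted p = 0.422). Groups lay apart in this direction for 3.37% of all tested genes.

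Likeness to the enzymes was measured as Pearson's r over the 12 libraries with the mean z-score of the 8 genes, a description with no test. Of the pathway genes, Msmo1 (0.82), Dhcr7 (0.77), Fads1 (0.75) and Hsd17b7 (0.72) came first, and Srebf2 had 0.63. Insig1 had 0.41 over all libraries and 0.69 after the group means were subtracted. By that measure other listed genes were as high or higher, among them Lrpap1 (0.78), Elovl6 (0.75) and Srebf1 (0.70). Others were lower, down to -0.70 for Lbr. Over all libraries Erlin1 (-0.56) and Pmvk (-0.47) were among the lowest, but after the subtraction they had 0.31 and 0.23. Outside the lists, 13514 protein-coding genes were ranked. The closest were Extl2, a glycosyltransferase (0.91), Primpol, a primase-polymerase (0.90), Slc48a1, a haem transporter (0.89), and Snapin, a SNARE-associated protein (0.85). Tmem125, Xpnpep2 and Tmem79 (each 0.84) and Klhl36, Mthfd1 and Tmem97 (each 0.83) completed the 10 genes. Extl2 averaged 16.1, 19.3 and 17.1 CPM and Primpol 6.05, 8.62 and 7.89 CPM after 0, 2 and 5 weeks, the same order of groups as for the enzymes. With 12 libraries that share depth and scaling, these ranks describe this set of libraries.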

How the data were processed

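Whole-lung RNA of 12 mice was sequenced. The authors deposited CPM values with an offset of 0.0001, so that each library sums to about 1000002 CPM. TopHat2, Partek and mm10 are listed without a role, per the submitters' processing notes. The tools' versions, annotation, filters and strand use were not given in the sources used here, nor was the build of the table's positions: 501 of 23073 identifiers matched to GENCODE M21 had the same start. Ends are given as the deposited stop minus 1. Between 87.4% and 88% of low values lay within 0.1 of a whole step, so reads were not recovered, no count model was fitted and no counting interval is given. Limma 3.58.1 (R 4.3.3) fitted group means to log2(CPM + 1) for genes whose mean reached 1 CPM, with a variance trend, two-sided tests and adjustment over all tested genes. That scale understates changes of low genes. The script was tested on data simulated for 5 against 0 weeks, with the same relative spread for all genes. It recovered 12.7%, 66%, 98% and 98% of genes changed 1.25, 1.5, 2 and 4 times, with 26 false calls in 3 runs. The 8 genes and the lists were chosen with earlier results of these data known. From each list the 2 genes with the smallest p in each comparison could be named, then the 10 closest genes. The lists are textbook sets for the pathway and markers of cell types. Some genes of the pathway, and 1 ranked by likeness, are not reported here and were left out of the lists and counts of list members. The alternatives were other pseudocounts, filters, scalings, weights and variance settings, fits of 2 groups, and leaving out libraries. Python 3.11.15 with pandas 2.3.3 and matplotlib 3.10.9 made tallies and plots.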

Additional observations from a re-analysis of the deposited data

Results flagged for a closer look

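The 8 enzymes and the other genes given by the naming rule were checked, and listed genes outside that rule were not. In CPM, 6 of 135 groups of 4 libraries had a highest or lowest value separated from the rest by more than Dixon's 95% critical share of the group's range, and chance gives about 1 in 20. None of the 6 was an enzyme of the 8, but control replicate 4 of Mvk came close, with a gap of 0.828 of its group's range in CPM and 0.847 on the log2(CPM + 1) scale, where it was past that share. Control replicate 2 of Cyp51 had a gap of 0.827 in CPM and 0.809 on the log2 scale. Abca1 read 69.0 CPM in 5-week replicate 3 against 103 to 107 CPM in the other 5-week libraries. In the same library Coq2 read 50.6 CPM against 39.4 to 40.6 CPM, and Rnf139, a sterol-responsive ubiquitin ligase, read 54.5 CPM against 45.8 to 46.6 CPM. Elovl6, a fatty acid elongase, read 37.7 CPM in control replicate 2 against 8.87 to 11.7 CPM in the other controls. In the same control library Mvd read 13.4 CPM against 9.93 to 10.1 CPM. Tmem79 read 8.31 CPM in 2-week replicate 1 against 6.44 to 6.67 CPM.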

How the results depend on the processing

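No paired analysis was possible because the replicate numbers only name libraries within a group. Under all 22 alternatives, 0 of the 8 enzymes passed the adjusted test in any comparison. The median log2 difference for 5 against 0 weeks was 0.26 without the 3 libraries that stand apart, against 0.14 with all. Leaving out 1 library gave medians of 0.20 to 0.37 for 2 against 0 weeks, 0.10 to 0.22 for 5 against 0 weeks and -0.14 to -0.06 for 5 against 2 weeks. Some differences near 0 changed sign. Leaving out 1 library, Fdft1 for 5 against 0 weeks ranged from -0.0875 to 0.1415 and Mvk from -0.0411 to 0.1349. For 5 against 2 weeks Idi1 ranged from -0.1308 to 0.0286 and Lss from -0.1014 to 0.0640. Lss was 0.0725 with library weights and 0.0347 without the 3 libraries. The cause was not tested. Genes past the threshold among all tested genes numbered 18 for 2 against 0 weeks and 881 for 5 against 2 weeks with library weights, 24 for 2 against 0 weeks without 5-week replicate 3, 1 each for 2 and for 5 against 0 weeks without control replicate 1, and 386 for 5 against 2 weeks without 2-week replicate 4, against 0 with all libraries weighted equally. The precision is limited by 4 mice a group, and the depth behind single values is known only from the steps.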
